A study of Homo sapiens with 4 samples.

Results

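LTR1, LTR1B, LTR1C, LTR1D, LTR21A and LTR21B are 6 of the 373 subfamilies of long terminal repeats (LTRs) listed in the deposited table. They were taken by name, and the names were selected on their measured differences between treatments, which earlier results of these data had shown to be small. The size of their differences is therefore a description and not a finding, and no test of it is given. Native chromatin immunoprecipitation with sequencing (ChIP-seq) was used to profile H3K9me2 and H3K9me3, histone H3 that carries 2 or 3 methyl groups on lysine 9 and marks heterochromatin, in HCT116, an established human colorectal carcinoma line. Cells were exposed for 24 h to PBS or to 5-aza-CdR at 300 nM and were collected at day 5. 5-aza-CdR (decitabine) is a cytosine analogue that traps DNA methyltransferases, so that DNA methylation is lost as cells divide. Each of the 4 groups (H3K9me2 in PBS, H3K9me2 in 5-aza-CdR, H3K9me3 in PBS and H3K9me3 in 5-aza-CdR) had 1 library, so no value below has a replicate check.

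LTRs flank the coding part of endogenous retroviruses and carry their promoter, enhancer and polyadenylation signals, and most survive in the genome as solitary LTRs. The LTR1 and LTR21 groups both belong to the class I, gammaretrovirus-like, endogenous retroviruses. LTR1 flanks elements of the HUERS-P group and LTR21 flanks elements related to the HERV-F and HERV-H group. Such repeats are kept silent in most somatic cells by DNA methylation and by H3K9 methylation, and methylated CpG sites mutate away with time, so a CpG-rich LTR tends to be a young one. The deposited z-scores are relative: the set they were centred and scaled on is not stated, and the read depth under them is unknown. Sequences, copy numbers and genome positions of the subfamilies were not analysed here, and the table holds no gene, so markers of the cell line were not checked.

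All 6 subfamilies were CpG-rich. Their deposited CpG densities ran from 0.0127 at LTR1D to 0.0213 at LTR1, against a median of 0.00734 over the 373 subfamilies. LTR1 held position 14 from the most CpG-rich end of the table, LTR1C (0.0165) position 25, LTR21A (0.0147) position 37, LTR21B (0.0138) position 50, LTR1B (0.0129) position 61 and LTR1D position 65. The density of LTR1 was 2.90 times the median of the table and that of LTR1D 1.73 times.

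In the PBS libraries the 6 subfamilies sat in the lower part of the table for both marks, without being extreme. For H3K9me2 the z-scores were -0.675 at LTR1, -0.642 at LTR21A, -0.593 at LTR21B, -0.531 at LTR1D, -0.496 at LTR1C and -0.479 at LTR1B, with a median of -0.412 over all subfamilies. The lowest of them, LTR1, held position 36 of 373 from the low end and the highest, LTR1B, position 138. For H3K9me3 they were packed more closely: -0.550 at LTR1, -0.545 at LTR1C, -0.534 at LTR1B, -0.531 at LTR1D, -0.523 at LTR21B and -0.519 at LTR21A, with a median of -0.504 over all subfamilies. The order of the groups differed between the marks in PBS. Both LTR21 subfamilies were below LTR1B, LTR1C and LTR1D for H3K9me2 and above all 4 LTR1 subfamilies for H3K9me3. The H3K9me3 z-scores in PBS span little, with an SD of 0.0354 over the table against 0.187 for H3K9me2, so small steps in them carry a subfamily over many ranks.

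In the 5-aza-CdR libraries the z-scores of the 6 subfamilies were higher than in PBS for both marks, as were nearly all others in the table, but they lay nearer its low end. For H3K9me2 they were -0.366 at LTR21B, -0.221 at LTR1, -0.210 at LTR21A, -0.114 at LTR1D, -0.0384 at LTR1B and -0.0269 at LTR1C, all below 0 where the median of the table was 0.312. Their positions from the low end ran from 11 (LTR21B) to 63 (LTR1C). For H3K9me3 the z-scores were -0.0956 at LTR21B, 0.0339 at LTR21A, 0.0724 at LTR1, 0.188 at LTR1B, 0.198 at LTR1D and 0.203 at LTR1C, where the median of the table was 0.468. LTR21B, at position 6 of 373, was the only one of the 6 below 0 for this mark. LTR1 and the LTR21 pair lay lower than LTR1B, LTR1C and LTR1D in both 5-aza-CdR libraries.

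**Figure D1:**
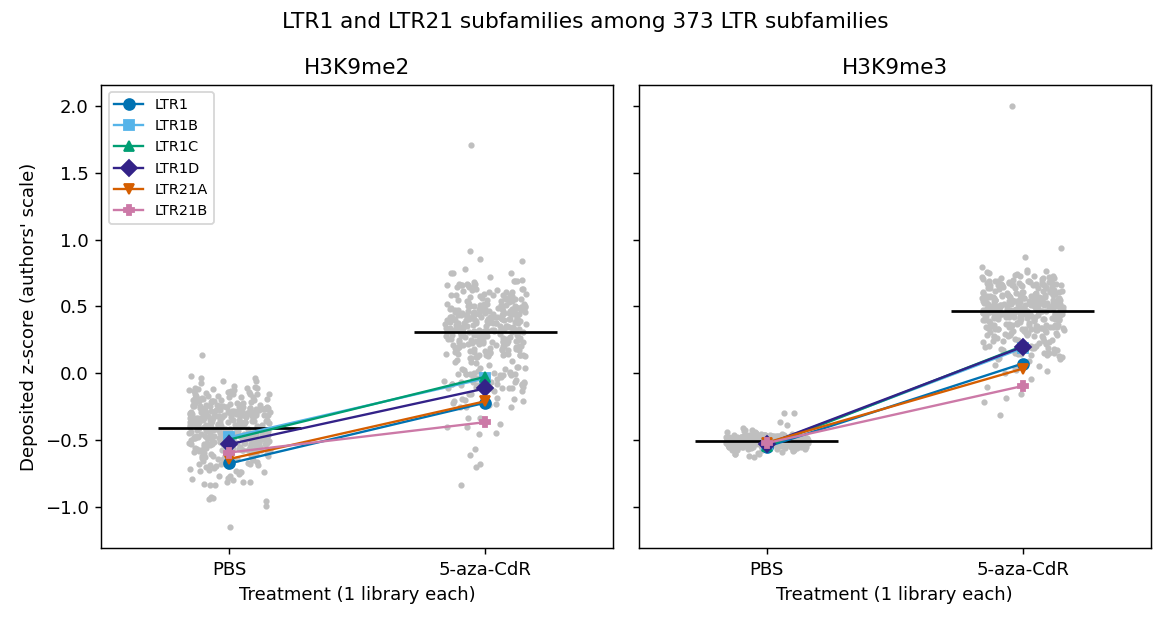
Deposited z-scores of the 6 LTR1 and LTR21 subfamilies (coloured lines) in the PBS and 5-aza-CdR libraries, for H3K9me2 (left) and H3K9me3 (right), with the other subfamilies as grey points spread sideways at random and the median of all 373 as a black bar. Each library is 1 sample, and the coloured lines end below the black bar in both 5-aza-CdR libraries, lowest for LTR21B.

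The comparison of treatments took the 5-aza-CdR z-score minus the PBS z-score of each mark. For H3K9me2 the difference was 0.227 at LTR21B, 0.417 at LTR1D, 0.432 at LTR21A, 0.440 at LTR1B, 0.454 at LTR1 and 0.469 at LTR1C. The median of the 6 was 0.436, against 0.702 over all subfamilies (interquartile range 0.608 to 0.780). The limit of size was set 2 robust SDs under the table's median, a robust SD being the median absolute deviation scaled to an SD, and came to 0.452 for H3K9me2. By this limit 8.04% of the 373 subfamilies were below it, and 4 of the 6 were: LTR1B, LTR1D, LTR21A and LTR21B. The other two lay just on the inner side, LTR1 at -1.99 and LTR1C at -1.86 robust SDs, and 4 of the 6 lay between -1.86 and -2.16, so the count depends on where the limit stands. LTR21B stood apart from the other 5, at -3.80 robust SDs and position 3 of 373 from the low end. These shares are set by the choice of the names and nothing is read from them.

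For H3K9me3 the difference was 0.427 at LTR21B, 0.553 at LTR21A, 0.623 at LTR1, 0.722 at LTR1B, 0.729 at LTR1D and 0.748 at LTR1C. The median of the 6 was 0.672, against 0.973 over all subfamilies (interquartile range 0.868 to 1.06). With the limit at 0.687, 7.24% of the 373 subfamilies were below it, and 3 of the 6 were: LTR1, LTR21A and LTR21B. LTR1B, LTR1C and LTR1D lay between -1.57 and -1.76 robust SDs. LTR21B was again the lowest of the 6, at -3.82 robust SDs and position 5 from the low end, followed by LTR21A at -2.94 and position 8. Below the limit for both marks were LTR21A and LTR21B, 2 of the 6, where 4.83% of the table was. LTR1B and LTR1D passed it for H3K9me2 alone, LTR1 for H3K9me3 alone and LTR1C for neither mark. Whether the marks differ at any of these subfamilies could not be tested with 1 library each.

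The value H3K9me3 minus H3K9me2 was above the median of the table at 6 of 6 subfamilies in both treatments. In PBS it ran from -0.0551 at LTR1B to 0.124 at LTR1, with a median of -0.0900 over the table. In 5-aza-CdR it ran from 0.226 at LTR1B to 0.311 at LTR1D, with a median of 0.144 over the table. The 59 other subfamilies at least as CpG-rich as LTR1D had PBS medians of -0.541 for H3K9me3 and -0.603 for H3K9me2. In 5-aza-CdR their medians were 0.206 and -0.0987. H3K9me3 had the higher median there in both treatments, so this trait was not particular to the 6. The z-scores of the 2 marks have different spreads, so these values compare places on the authors' scales and not amounts of the marks.

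Because CpG-rich LTRs as a whole had small differences on the deposited scale, each subfamily was set beside its 30 nearest others in CpG density. On that scale, of the 59 other subfamilies at least as CpG-rich as LTR1D, 40.7% were below the limit for H3K9me2 and 28.8% for H3K9me3. This was much more than in the whole table, and the shares of the 59 on other scales were not computed. The 59 had median differences of 0.478 for H3K9me2 and 0.752 for H3K9me3. Of these 59, 21 had a H3K9me2 difference below the median of the 6 and 13 had a H3K9me3 difference below it. The medians of the 6, 0.436 and 0.672, were nearer to these than to those of the whole table on the deposited scale. On ranks for H3K9me2 the gap was much the same. The median of the 6 gaps to 30 CpG-matched neighbours was -10.2 points, and the median of the 6 lay -12.6 points from the table's. For H3K9me3 these values were -3.49 and -7.37. The number of CpG-matched neighbours below the limit also depended on the scale. For H3K9me2 it was lower on both other scales at all 6. At LTR1 it was 11 of 30 as deposited, 2 with SD 1 in each library and 1 on ranks. For H3K9me3 it was 11, 2 and 1 at LTR1, but 4, 2 and 5 at LTR1B and LTR1D. The share of the whole table below the limit also changed with the scale. In the same order it was 8.04%, 2.95% and 3.49% for H3K9me2 and 7.24%, 4.56% and 6.43% for H3K9me3.

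**Figure D2:**
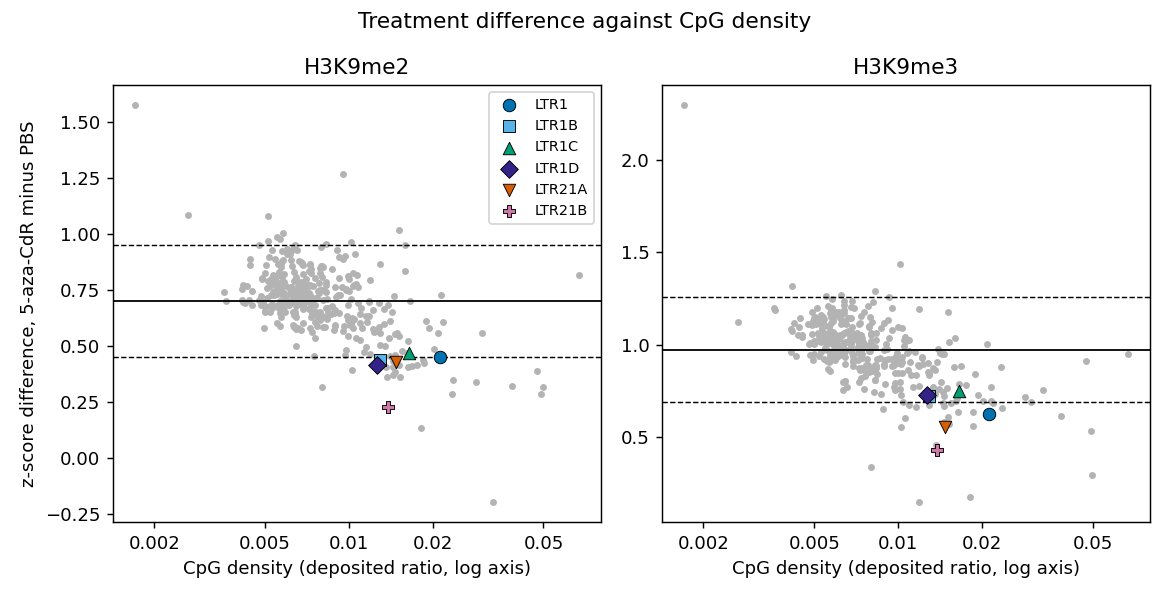
Difference in z-score between treatments (5-aza-CdR minus PBS, vertical axis) against deposited CpG density (log axis) for H3K9me2 (left) and H3K9me3 (right). Each point is 1 subfamily, the solid line is the median of all 373 and the dashed lines stand 2 robust SDs from it; the coloured subfamilies lie among other CpG-rich points, except LTR21B in both panels and LTR21A for H3K9me3, which lie near or under the lower edge.

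Subfamily by subfamily, the 30 nearest in CpG density ranged from ones with much the same difference, at LTR1C, to ones with a far larger difference, at LTR21B. LTR1C had a H3K9me2 difference of 0.469 beside a neighbour median of 0.474, with 15 of 30 neighbours lower. Its H3K9me3 difference of 0.748 stood beside 0.762, with 14 of 30 lower. LTR1 was close to its neighbours for H3K9me2 (0.454 beside 0.483, 11 of 30 lower) and lower than most for H3K9me3 (0.623 beside 0.716, 5 of 30 lower). LTR1B and LTR1D had 4 and 3 of 30 neighbours lower for H3K9me2 and 5 and 6 of 30 for H3K9me3. LTR21A had 9 of 30 lower for H3K9me2 (0.432 beside 0.491), and only 1 of 30 for H3K9me3 (0.553 beside 0.761). LTR21B was under all 30 of its neighbours for both marks, with 0.227 beside 0.542 for H3K9me2, where the lowest neighbour was 0.365, and 0.427 beside 0.769 for H3K9me3, where the lowest was 0.454.

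Setting each subfamily beside the 30 nearest in PBS z-score of the same mark asks whether others that began at the same level differed as little. Here the starting level is held nearly constant, so a lower difference is the same as a lower 5-aza-CdR value. All 6 were under the median of their neighbours for both marks, a count that the choice of the names for small differences favours. For H3K9me2 the gap to that median was largest at LTR21B (-0.339, with 0 of 30 neighbours lower). It was -0.252 at LTR1D (3 lower), -0.242 at LTR1B (1 lower), -0.201 at LTR1C (4 lower), -0.151 at LTR1 (5 lower) and -0.146 at LTR21A (5 lower). For H3K9me3 the gaps at the LTR21 pair were the widest, -0.518 at LTR21B and -0.379 at LTR21A, with 0 of 30 neighbours lower for either. The LTR1 subfamilies had gaps from -0.0706 at LTR1C, with 12 of 30 lower, to -0.196 at LTR1, with 6 of 30 lower. These neighbours were less CpG-rich in the median, by unlike amounts. Those of LTR21B for H3K9me3 had a median density of 0.00795 against 0.0138 for LTR21B itself. Those of LTR21A for H3K9me2 had 0.0141 against 0.0147. CpG density thus moved with this comparison, but not equally at each subfamily.

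**Figure D3:**
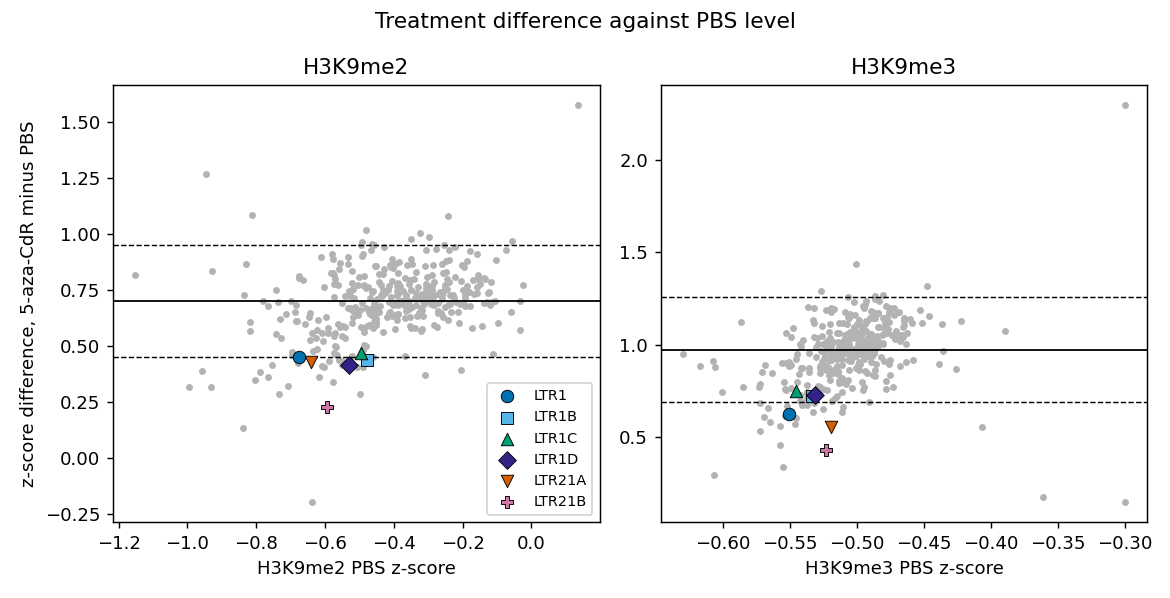
Difference in z-score between treatments (5-aza-CdR minus PBS, vertical axis) against the PBS z-score of the same mark (horizontal axis), for H3K9me2 (left) and H3K9me3 (right). Each point is 1 subfamily, the solid line is the median of all 373 and the dashed lines stand 2 robust SDs from it. At their PBS level the coloured subfamilies lie along the lower side of the cloud, with LTR21B lowest of the 6. The exception is LTR1C for H3K9me3, which lies within the interquartile range of its PBS-matched neighbours.

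Neighbours were next taken by distance on the ranks of PBS z-score and CpG density together. The gap was smaller than with PBS alone for 6 of 6 subfamilies for each mark, and LTR21B had the widest gap for both marks. This matching was loose at LTR1. Its H3K9me2 neighbours ran from 0.0138 to 0.0491 in CpG density. Their PBS z-scores ran from -0.956 to -0.574, against -0.736 to -0.612 with PBS alone. LTR21B had 0 of 30 neighbours lower for either mark, with 0.227 beside 0.542 for H3K9me2 and 0.427 beside 0.807 for H3K9me3. LTR21A had 0 of 30 lower for H3K9me3, with 0.553 beside 0.779, and 10 of 30 for H3K9me2, with 0.432 beside 0.496. The contrast between the marks at LTR21A was not tested. LTR1D had 3 of 30 lower for H3K9me2 and 9 of 30 for H3K9me3, and LTR1B had 4 and 8. LTR1 had 13 of 30 lower for H3K9me2 and 8 of 30 for H3K9me3. LTR1C had 13 of 30 lower for H3K9me2, and for H3K9me3 it lay above the neighbour median, 0.748 beside 0.715, with 18 of 30 lower.

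**Figure D4:**
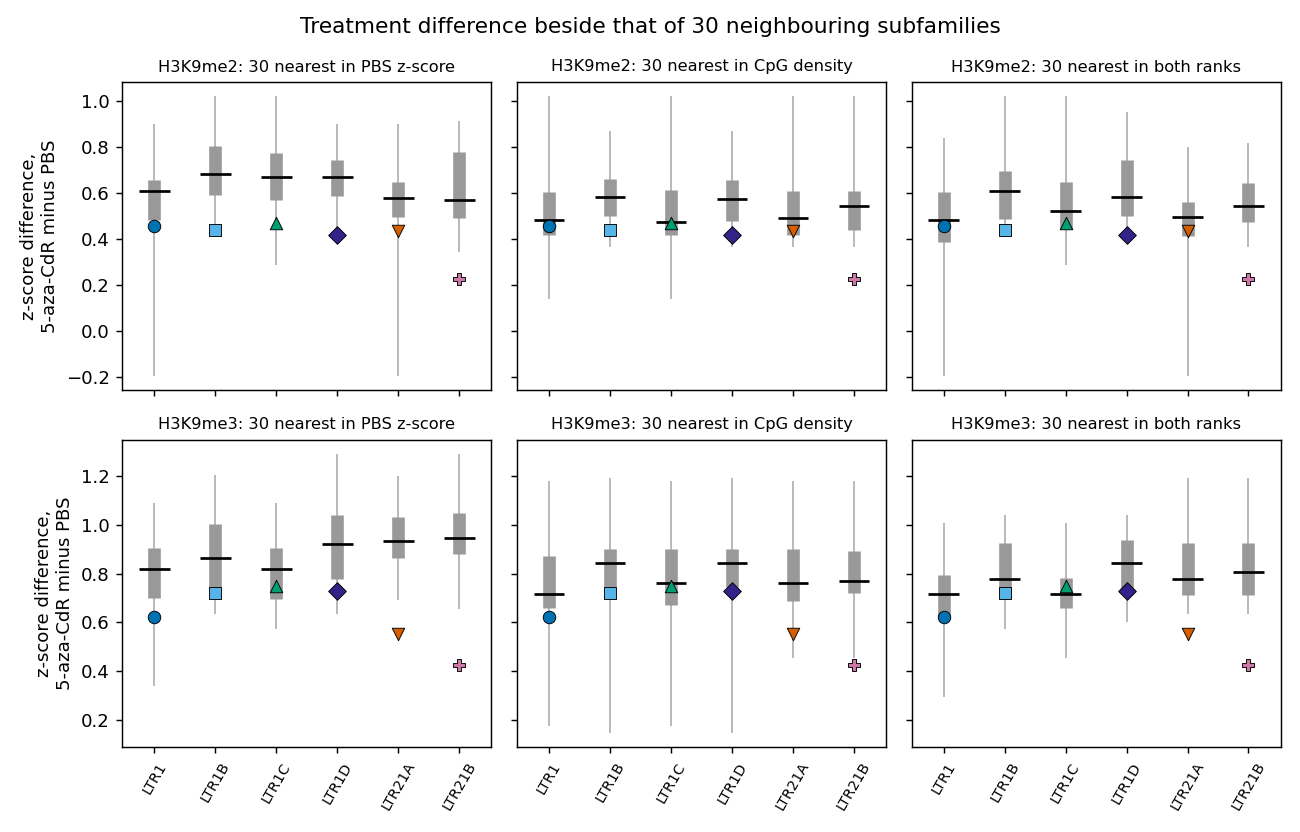
Difference in z-score between treatments of each of the 6 subfamilies (coloured symbols) beside its 30 nearest other subfamilies in PBS z-score (left), CpG density (middle) or the ranks of both (right), for H3K9me2 (top) and H3K9me3 (bottom). Black bars are neighbour medians, thick grey bars the interquartile range of the neighbours and thin lines their whole range; LTR21B is under the whole range for H3K9me2 in each panel, and for H3K9me3 the left and right panels also place LTR21A under it.

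With every library set to mean 0 and SD 1 over the table, LTR21B alone of the 6 was below the limit for H3K9me2, at -2.87 robust SDs, where 2.95% of the table was. For H3K9me3 LTR21A (-2.51) and LTR21B (-3.31) were below it, where 4.56% of the table was, and LTR1C lay at -0.192.

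Ranks allow only a short step down to a subfamily that is already low in PBS. Percentile ranks within each library, from 0 to 100, were compared. For H3K9me2, LTR1 had a percentile of 9.52 in PBS and 5.23 in 5-aza-CdR, LTR21A 11.4 and 5.76, and LTR21B 15.7 and 2.82. LTR1B, LTR1C and LTR1D had the widest steps, from 36.9 to 15.7, from 31.8 to 16.8 and from 25.3 to 9.25. For H3K9me3 the widest steps were those of the LTR21 pair, LTR21A from 30.2 to 2.82 and LTR21B from 26.7 to 1.47. The other 4 had shorter steps, LTR1 from 8.18 to 3.89, LTR1B from 17.8 to 10.1 and LTR1C from 10.6 up to 11.9, and the rank difference of LTR1D was -8.58 points. None of the 6 passed 2 robust SDs in rank difference for either mark. Below the lower limit lay 3.49% of the table for H3K9me2 and 6.43% for H3K9me3. For H3K9me3 that limit was -39.8 points and the highest PBS percentile of the 6 was 30.2, so none could fall below it. For H3K9me2 it was -25.2 points, which LTR1, LTR21A and LTR21B could not reach from their PBS percentiles. Nothing is therefore read from the lack of calls on ranks.

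**Figure D5:**
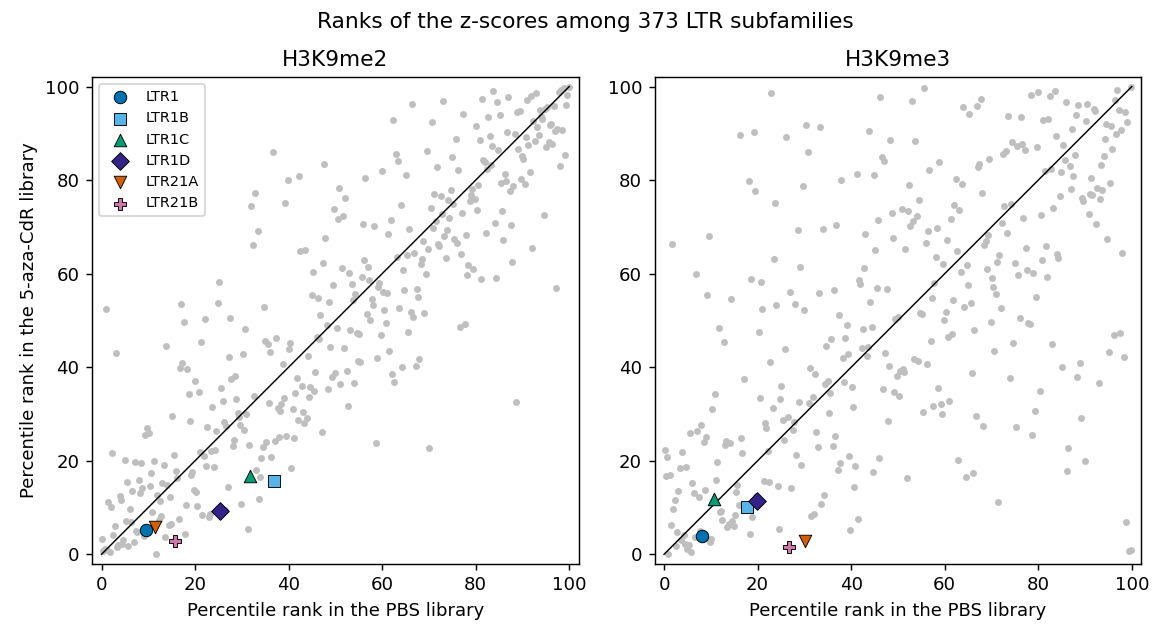
Percentile rank of the z-score in the 5-aza-CdR library (vertical axis) against that in the PBS library (horizontal axis) for H3K9me2 (left) and H3K9me3 (right), with the line of equal rank. Each point is 1 of the 373 subfamilies; the coloured ones lie under the line except LTR1C for H3K9me3, and the LTR21 pair lies furthest under it for H3K9me3.

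Ranks set beside neighbours again placed the LTR21 pair furthest down for H3K9me3. Against the 30 nearest in PBS z-score, the rank difference of LTR21A was -27.3 points beside a neighbour median of 4.96 and that of LTR21B -25.2 beside 9.79, with 0 of 30 lower for both. Against the 30 nearest in CpG density the same values stood beside -3.22 and -2.41, with 1 and 3 of 30 lower. LTR1C, with 1.34 points, was above the CpG-matched median of -2.14. For H3K9me2 the widest rank gap to PBS-matched neighbours was that of LTR1B, with -21.2 points beside -1.07 and 1 of 30 lower. LTR21B, the lowest on the deposited scale, had -12.9 beside 1.34, also with 1 of 30 lower. With neighbours matched on both, the widest H3K9me2 rank gap was that of LTR1D (-13.3 points), ahead of LTR21B (-10.9) and LTR1B (-10.6). The subfamily with the widest H3K9me2 gap on ranks thus depended on the matching, while on z-scores it was LTR21B with each of the matchings used.

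The subfamilies most like each of the 6 over the 4 libraries were found by distance with every library set to mean 0 and SD 1. Outside the 6, LTR9B, another LTR of the HUERS-P group, was nearest to LTR1B (0.188 SDs), to LTR1D (0.256) and to LTR1C (0.433), with differences of 0.407 for H3K9me2 and 0.735 for H3K9me3. For LTR1 the nearest were LTR22B (0.338) and LTR7Y (0.404), and for LTR21A they were LTR10F (0.718) and LTR2B (0.726). LTR21B had the most distant nearest match of the 6. It was LTR7, an LTR of HERV-H, at 0.976, with differences of 0.362 and 0.572, and LTR21A was at 0.874. Nearest distances were not computed over the whole table, so whether 0.976 is large there is unknown. Second after LTR9B were LTR17 for LTR1B, LTR6B for LTR1C and MER52D for LTR1D, and second for LTR21B was LTR7Y. This likeness covers 4 libraries and says nothing of shared function.

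The table held 0 further subfamilies named LTR1 plus a letter or LTR21. Related groups listed by name were 11 LTRs of the HERV-F and HERV-H group (LTR7, LTR19 and HERV-Fc names) and 4 of the HUERS-P group (LTR8, LTR8A, LTR9 and LTR9B). These lists were drawn up with earlier results of the data known. The HERV-F and HERV-H list had a median difference of 0.436 for H3K9me2, from -0.196 at HERV-Fc2_LTR to 0.819 at HERV-Fc1_LTR2, with 6 of 11 below the limit, where 8.04% of the table was. For H3K9me3 its median was 0.674, from 0.295 at HERV-Fc1_LTR1 to 0.951 at HERV-Fc1_LTR2, with 6 of 11 below, where 7.24% of the table was. With SD 1 in each library 1 of 11 was below the limit for each mark, where 2.95% of the table was for H3K9me2 and 4.56% for H3K9me3. On that scale 2 of 11 were above the upper limit for each mark, where 30 of the 373 were for H3K9me2 and 20 for H3K9me3. On ranks 0 of 11 were below, where 3.49% and 6.43% of the table was. LTR21B lay under the list's median for both marks. The HUERS-P list had medians of 0.662 and 0.886, nearer to those of the table than the LTR1 subfamilies were. Its lowest member was LTR9B for both marks, below the limit for H3K9me2, and its highest were LTR9 for H3K9me2 (0.691) and LTR8A for H3K9me3 (0.956).

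Each subfamily was also set beside the single nearest one on PBS rank and CpG rank together, and these pairs did not always follow the medians of 30 neighbours. Beside LTR21B stood MER52A for H3K9me2, with a PBS z-score of -0.588, a 5-aza-CdR z-score of -0.152 and a difference of 0.437, and LTR71A for H3K9me3, with -0.528, 0.245 and 0.772. Beside LTR21A stood LTR5A for H3K9me2, with a difference of 0.559, and MER11C for H3K9me3, with 0.697. Beside LTR1C stood LTR6A for H3K9me2, whose PBS z-score of -0.495 was almost that of LTR1C and whose difference of 0.951 was far higher, and LTR12F for H3K9me3, with 0.841. LTR1D was paired with LTR14B for both marks (0.662 and 0.932), and LTR1B with MER11A (0.505) and LTR9 (0.850). LTR1 was paired with LTR12F for H3K9me2 (0.614) and with LTR12C for H3K9me3, whose difference of 0.613 was close to the 0.623 of LTR1. LTR1C for H3K9me3 was thus below its pair and above the median of its 30 neighbours, and LTR1 for H3K9me3 the reverse. In 11 of these 12 pairs the LTR1 or LTR21 subfamily had the smaller difference. The names were selected on their small differences, so this count was largely set by that choice and nothing is read from it. Each subfamily also enters it for both marks, so the 12 pairs are not separate cases.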

How the data were processed

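Native ChIP-seq libraries of H3K9me2 (Abcam antibody) and H3K9me3 (Active Motif antibody) were analysed from the authors' table of 373 LTR subfamilies. Per the file headers, the authors deposited their values as a standardised score (z-score) per subfamily and library, not as counts. They also deposited a CpG density, a ratio whose denominator is not stated. The submitters' processing notes name Bowtie2 and hg19. How reads shared by several copies were treated, whether an input was used and on which set z-scores were centred is not stated. Each could shift all values of a repeat family. Columns were matched to libraries by the sample descriptions, and 0 columns of other samples were present.

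The 6 subfamilies, the related lists and the measures were chosen with earlier results of these data known. Differences (5-aza-CdR minus PBS) were computed in Python 3.11.15 with pandas 2.3.3 and set in robust SDs around the median of the table. Neighbours were the 30 nearest subfamilies outside the 6, by PBS z-score, by CpG density or by Euclidean distance on the ranks of both. Subfamilies named besides the 6 are the 2 most like each over the 4 libraries, the nearest on both ranks, and the highest and lowest of each related list. With 1 library per group no test and no p-value was possible. The counting code was run for H3K9me2 on simulated differences unrelated to CpG density or PBS level. That checks the code and not the counts reported. Alternatives were other scales, limits, neighbour numbers and filters.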

Additional observations from a re-analysis of the deposited data

How the results depend on the processing

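The median difference of the 6 subfamilies was -2.13 robust SDs from that of the table for H3K9me2 and -2.11 for H3K9me3. On percentile ranks it was -1.06 and -0.379, and for H3K9me3 it was -0.869 with mean 0 and SD 1 in each library and -3.38 for the LTR21 names alone. The count beyond the limit was 4 for H3K9me2 and 3 for H3K9me3, where 8.04% and 7.24% of the table was below. It became 0 for both marks on ranks, where 3.49% and 6.43% of the table was below. On ranks none of the 6 could fall below the limit for H3K9me3. For H3K9me2 LTR1, LTR21A and LTR21B could not, so nothing is read from the counts on ranks. With a limit of 3 robust SDs the count was 1 for both marks. For H3K9me2 it was 1 with SD 1, where 2.95% of the table was below, and 1 with 2 ordinary SDs. It was 2 without the 20% of subfamilies nearest 0 in PBS, and 2 for the LTR1 and 2 for the LTR21 names alone. For H3K9me3 it was 1 for the LTR1 names alone. No share of the table was computed for 3 robust SDs, 2 ordinary SDs or the filter near 0, so nothing is read from those counts. The counts under neighbour medians, which the choice of the names for small differences favours, were 6 of 6, or 5 with H3K9me3 matched on both. The LTR21 names alone gave 2 of 2 in each of these, and the LTR1 names alone gave 3 of 4 for H3K9me3 matched on both. With 15 or 60 neighbours or without relatives, these counts stayed within 1.5 times. Leaving out each of the 6 in turn kept the same neighbours, so it could lower a count by at most 1 and is no check of these counts. LTR1C for H3K9me3 lay on the other side of the table's median on ranks (0.110 robust SDs), while the other 11 of 12 single differences stayed below it. The cause of these shifts was not tested; the lone LTR1 and LTR21 names hold fewer subfamilies by construction. No paired analysis was possible because each group had 1 library. The depth behind the z-scores is unknown.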
